A study of Mus musculus with 2 samples.

Results

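MDSC_3 is a cluster of tumour-infiltrating, neutrophil-like cells that had the highest summed level of type I interferon-stimulated genes among the 30 clusters of the antibody library in this single-cell study of mouse tumours. Its members are the cells whose deposited cluster name is MDSC_3, which stands among the clusters named as myeloid-derived suppressor cells. They numbered 220 of 11247 cells, of which 180 of 5482 came from the antibody library and 40 of 5765 from the IgG library. The tumours were percutaneous grafts of Hep1-6, a mouse hepatoma line, in wild-type male C57BL/6 mice aged 6 to 8 weeks. The mice received intraperitoneal SIGLEC15 antibody (3 mice) or intraperitoneal IgG (3 mice). Each group gave 1 library, in which CD45 bead-enriched cells and unsorted cells of the digest were mixed in equal parts, and the cells are not assigned to mice. No difference therefore has a replicate check, no test was made, and every interval is a 95% interval for counting error only. The antibody library was measured across 18685 genes and carries the description below, while the IgG library was read for 105 genes.

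Neutrophils are short-lived phagocytes that leave the bone marrow with a largely finished set of granule proteins and still change their transcription in tissue. Type I interferons signal through the receptor chains Ifnar1 and Ifnar2 to a complex that contains Stat2 and Irf9 and binds interferon-stimulated response elements. Interferon gamma signals through Ifngr1 and Ifngr2 to gamma-activated sites and induces Irf1, guanylate-binding proteins and antigen-processing genes. The response genes of these pathways overlap, so the transcript list alone does not name the ligand.

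The sequence feature that many of the leading MDSC_3 genes held is the core of the interferon-stimulated response element: GAAA, any 2 bases, GAAA. It was searched on both strands from 250 bases before to 50 bases after each transcription start in the RefSeq promoter table (GRCm38.p6). Of the 15 genes with the strongest excess in MDSC_3 over MDSC_1, MDSC_2 and MDSC_4, 10 held the core (66.7%). The core was present in 4.99% of the 4727 genes compared that had a promoter and in 3.99% of all 27025 genes in the table. Of the 15 genes with the strongest deficit, 12 had a promoter and 0 held it. Stretches around the core are shown for 7 of the 10 genes, to let the elements be compared. All run 5′ to 3′ on the gene's own strand, end before the start site and overlap no annotated exon, and capitals mark every base inside a match. In Isg15, an antiviral ubiquitin-like protein, 3 matches overlap in a single run, and in Socs1, a feedback inhibitor of Janus kinases, 2 matches overlap. In Rsad2, Ifit1, Ifit3 and Gbp5 the match lies on the opposite strand and reads TTTC, any 2 bases, TTTC.
Isg15: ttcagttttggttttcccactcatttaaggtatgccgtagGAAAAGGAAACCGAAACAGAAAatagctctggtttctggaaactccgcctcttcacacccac
Rsad2: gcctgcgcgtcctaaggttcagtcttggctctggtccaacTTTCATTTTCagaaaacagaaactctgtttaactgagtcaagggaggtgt
Ifit1: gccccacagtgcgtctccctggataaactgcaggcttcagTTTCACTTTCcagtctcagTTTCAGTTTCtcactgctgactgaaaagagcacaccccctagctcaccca
Ifit3: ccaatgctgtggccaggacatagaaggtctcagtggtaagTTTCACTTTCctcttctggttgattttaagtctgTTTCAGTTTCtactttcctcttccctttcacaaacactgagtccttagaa
Cxcl10: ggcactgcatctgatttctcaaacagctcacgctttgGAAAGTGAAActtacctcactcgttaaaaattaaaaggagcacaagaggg
Gbp5: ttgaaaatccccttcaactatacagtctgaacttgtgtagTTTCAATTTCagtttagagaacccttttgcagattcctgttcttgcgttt
Socs1: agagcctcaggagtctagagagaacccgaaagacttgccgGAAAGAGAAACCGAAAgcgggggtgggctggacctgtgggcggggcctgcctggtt

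These stretches lie at chr4:156200835-156200936 on the minus strand for Isg15, chr12:26456523-26456612 on the minus strand for Rsad2 and chr19:34640745-34640853 on the plus strand for Ifit1. Those of Ifit3 at chr19:34583333-34583456 and Gbp5 at chr3:142496729-142496818 are on the plus strand. Those of Cxcl10 at chr5:92349053-92349139 and Socs1 at chr16:10785564-10785659 are on the minus strand. The core was found in 20 of 39 genes of a type I interferon list with a promoter (51.3%) and in 11 of 21 of an interferon gamma list (52.4%). Near-identical copies count as separate genes here. The stretches of Ifit3 and Ifit3b have the same bases, and those of Oas1a and Oas1g nearly so. The gamma-activated site, TTCNNNGAA, was found in 10 of 21 genes of the interferon gamma list (47.6%), in 7 of 39 of the type I list (17.9%) and in 9.55% of all genes. Among genes induced through NF-kB, 0 of 20 held the response element core, while 7 of 20 (35.0%) held the NF-kB site (GGGAA, any 3 bases, CC), against 6.59% of all genes. A match is a description of the letters in the window and does not show that a factor binds there.

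MDSC_3 was close to its neighbours in depth. The median was 1059 UMIs and 521 genes per cell in MDSC_3, against 950 UMIs and 529 genes in MDSC_1, 1183 and 503 in MDSC_2, and 1049.5 and 500 in MDSC_4. Mitochondrial transcripts made up 3.71% of UMIs in MDSC_3, against 4.04% in MDSC_1, 2.33% in MDSC_2 and 3.39% in MDSC_4. Most other immune clusters were deeper, with medians of 6946.5 UMIs over the macrophage clusters and 3796 in the cluster named DC, but Macrophage_4 had 1053. In the IgG library the 35 MDSC_3 cells whose depth could be recovered had a median of 999 UMIs. The libraries shared 11 cell barcodes, and 0 of them belonged to MDSC_3.

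The 5 genes given as marks of the cluster did not set it apart equally. Isg15 stood at 6457 CPM (UMIs of the gene per 1000000 UMIs of the cluster) in MDSC_3, against 1520 in MDSC_1, 1689 in MDSC_2 and 1309 in MDSC_4. Rsad2, which encodes the antiviral enzyme viperin, stood at 1878 CPM in MDSC_3, against 362, 377 and 466 CPM in MDSC_1, MDSC_2 and MDSC_4. Both were thus separated from every neighbour, with ratios of 4.24 (3.90 to 4.61) and 4.77 (4.07 to 5.61) to MDSC_1, MDSC_2 and MDSC_4 pooled. Acod1, the enzyme that makes itaconate, stood at 2086 CPM in MDSC_3, against 579, 1183 and 1291 CPM in MDSC_1, MDSC_2 and MDSC_4, a pooled ratio of 2.16 (1.91 to 2.45). That ratio was 1.87 over cells with at least 1000 UMIs, 1.76 against MDSC_2 alone and 1.62 against MDSC_4 alone. Il1b, the inflammasome-processed cytokine, was at 14406 CPM in MDSC_3, against 12544, 15126 and 6698 CPM in MDSC_1, MDSC_2 and MDSC_4. Hdc, the enzyme that makes histamine, was at 1554 CPM in MDSC_3, against 1354, 1469 and 1102 CPM in MDSC_1, MDSC_2 and MDSC_4. Il1b and Hdc therefore mark all 4 clusters, with pooled ratios of 1.21 (1.16 to 1.26) and 1.17 (1.03 to 1.33). The measured markers go with the description as interferon-induced and neutrophil-like. All 10 neutrophil markers were detected in MDSC_3, but Ly6g, which defines mouse neutrophils by antibody staining, had only 31.0 CPM there.

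The first comparison set MDSC_3 against MDSC_1, MDSC_2 and MDSC_4 pooled, the 527 most similar cells of the antibody library. A gene with at least 10 UMIs was called where the ratio was at least 2 or at most 0.5 and its interval excluded 1. Of 5858 genes, 214 were called higher in MDSC_3 (3.65%) and 189 lower (3.23%), with a median log2 ratio over all genes of -0.12. With ratios divided by that median, 280 were called higher and 123 lower. Because the clusters were made from these same genes, the ratios describe the cluster and test nothing. In the list of type I interferon-stimulated genes, 33 of 41 genes compared were called higher and 0 lower, with a median log2 ratio of 1.55. The list has 50 genes, of which 48 are in the table.

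The proteins with tetratricopeptide repeats that bind viral RNA led the type I list. Ifit2 stood at 399 CPM in MDSC_3, against 7.87 CPM in MDSC_1, 9.54 in MDSC_2 and 18.9 in MDSC_4, a pooled ratio of 35.4 (16.5 to 90.7). Ifit3 stood at 390 CPM in MDSC_3, against 23.6, 23.9 and 6.30 CPM in MDSC_1, MDSC_2 and MDSC_4, a ratio of 20.2. Ifit1 was at 469 CPM in MDSC_3, against 51.2, 90.6 and 88.1 CPM in the same clusters, a ratio of 6.35 (4.45 to 9.19). No neighbour came near MDSC_3 for these genes. Slfn5, a nuclear regulator of the Schlafen family, was at 797 CPM in MDSC_3 and at 122, 196 and 113 CPM in MDSC_1, MDSC_2 and MDSC_4. Herc6, the ligase that attaches Isg15 in mouse, was at 195 CPM in MDSC_3 and at 31.5, 23.9 and 31.5 CPM in MDSC_1, MDSC_2 and MDSC_4. Ifit3b, a near-identical copy of Ifit3, was at 182 CPM in MDSC_3, against 11.8, 9.54 and 12.6 CPM in MDSC_1, MDSC_2 and MDSC_4. Also called were Irf7, the regulator that amplifies interferon production, with a ratio of 3.74, and Oas3 with 2.58. Oas3 makes the activator of RNase L. Ifitm3, which blocks virus entry at endosomes, had a ratio of 1.91, Ifi27l2a 1.95, Oasl2 1.83, Ly6e 1.72 and Trim30d 1.70, all under the 2-fold asked for a call. Slfn1, with a ratio of 1.15 (0.987 to 1.33), Trim25 and Oas1a had intervals that include 1. Ifi47, an interferon-inducible GTPase, was at 1089 CPM in MDSC_3, against at most 228 CPM, in MDSC_1, among the neighbours. Its pooled ratio of 7.37 was above that of Ifit1. Among the 15 genes with the strongest excess, 2 are on no list: Trim30c, a copy of the Trim30 family, had a ratio of 8.59 (4.90 to 15.8) and Tagap, a GTPase-activating protein of leukocytes, 6.09 (3.69 to 10.3). Near-identical copies in the Ifit, Oas, Slfn, Trim30, Gbp and Tgtp families may share reads, so values of single copies are less certain than those of the family.

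**Figure D1:**
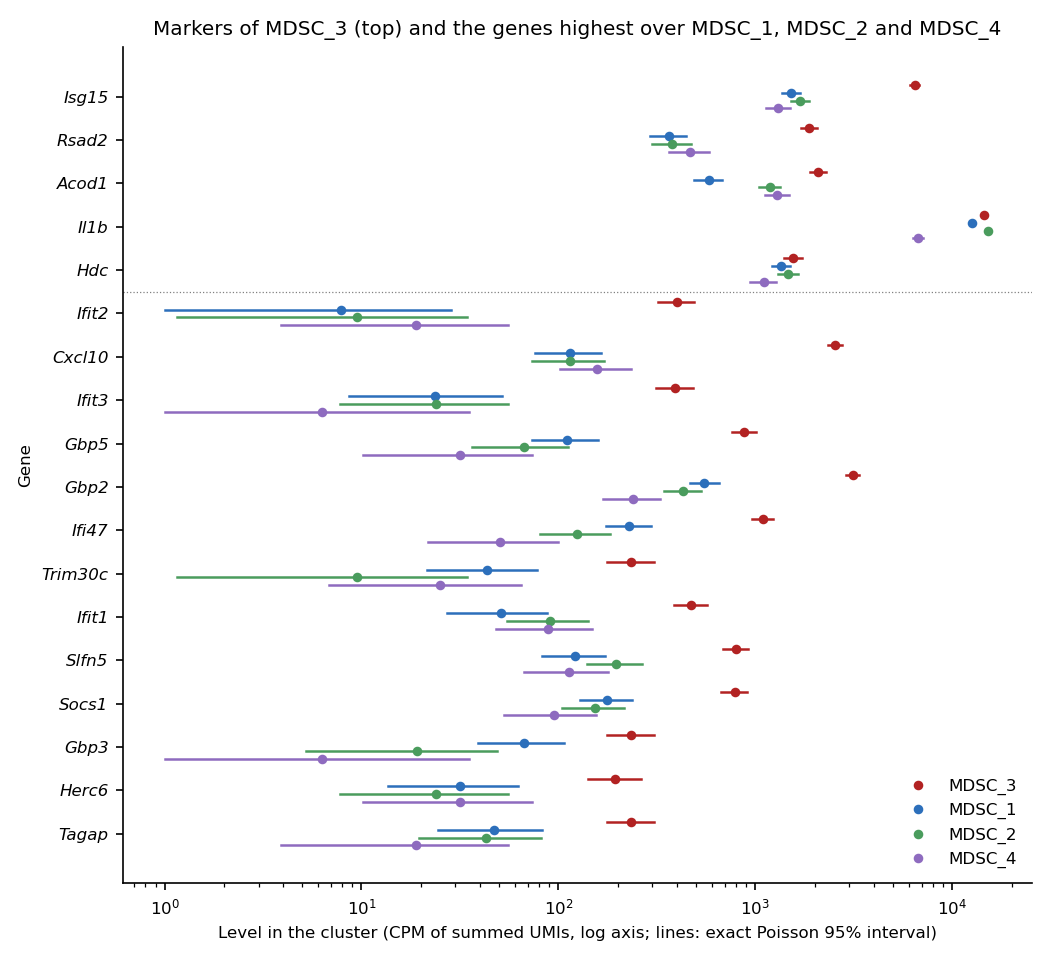
Level of each gene (horizontal axis, CPM on a log scale) in MDSC_3 (red) and in MDSC_1 (blue), MDSC_2 (green) and MDSC_4 (purple) of the antibody library, with exact Poisson 95% intervals cut at 1 CPM. The 5 markers stand above the dotted line and the other genes with the strongest excess below it. Isg15 and Rsad2 are separated from all 3 neighbours, Il1b and Hdc are not, and below the line every red point lies to the right of the other 3.

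Genes that interferon gamma induces were also mostly higher in MDSC_3. Of 23 genes compared of 28 listed, 20 were called higher and 0 lower, with a median log2 ratio of 1.81. Cxcl10, a chemokine that attracts Cxcr3-bearing T cells, stood at 2542 CPM in MDSC_3, against 114 in MDSC_1, 114 in MDSC_2 and 157 in MDSC_4, a ratio of 20.3 (16.0 to 26.0). Gbp2, a guanylate-binding protein that attacks pathogen vacuoles, was at 3122 CPM in MDSC_3, against 551, 429 and 239 CPM in MDSC_1, MDSC_2 and MDSC_4, a ratio of 7.25 (6.29 to 8.38). Gbp5, a family member that promotes inflammasome assembly, was at 877 CPM in MDSC_3, against 110, 66.8 and 31.5 CPM, a ratio of 11.6 (8.41 to 16.3). Each was highest in MDSC_3, and for both Gbp genes MDSC_1 was the nearest cluster. Socs1 had a ratio of 5.30 (4.10 to 6.90), and Irf1, the transcription factor behind much of the gamma response, had 3.90 (3.38 to 4.51). Cd274, the gene of the checkpoint ligand PD-L1, was at 1293 CPM in MDSC_3, against 409 in MDSC_1, 172 in MDSC_2 and 781 in MDSC_4, a ratio of 3.05 (2.57 to 3.61). Cxcl9, a second Cxcr3 ligand, was at 182 CPM in MDSC_3, against 106, 23.9 and 25.2 CPM, a ratio of 3.14 (1.96 to 5.06). Iigp1 and Irf8 were compared and not called, with 7 and 2 UMIs in MDSC_3. Nos2 and Serpina3g had 0 CPM in MDSC_3.

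Class I antigen presentation was higher in MDSC_3 and class II was not. Of 18 class I genes, 8 were called higher and 0 lower, with a median log2 ratio of 0.95. The difference was smallest against MDSC_1. Called higher were 3 of 17 genes against MDSC_1 alone, 12 of 17 against MDSC_2 and 9 of 17 against MDSC_4. Tap1, a subunit of the peptide transporter, was at 518 CPM in MDSC_3, against 209, 205 and 75.5 CPM in MDSC_1, MDSC_2 and MDSC_4. Psmb9, an immunoproteasome subunit, was at 686 CPM in MDSC_3, against 268, 176 and 107 CPM, and Psmb8, another, had a ratio of 2.53 (2.15 to 2.99). The genes for the presented complex itself differed less, with ratios of 1.75 (1.61 to 1.90) for B2m, 1.60 (1.46 to 1.76) for H2-D1 and 1.44 (1.26 to 1.63) for H2-K1. H2-K1 was at 1608 CPM (1446 to 1782) in MDSC_3 and 1528 CPM (1379 to 1687) in MDSC_1, with overlapping intervals. Of 8 class II genes compared, 0 were called in either direction: H2-Aa had 75.3 CPM in MDSC_3 and H2-Ab1 88.6, and Cd74, the invariant chain, had a ratio of 1.21 (0.921 to 1.58).

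Within the pathway itself, several response factors and inhibitors were higher in MDSC_3, and no receptor chain was called higher. Of 18 genes compared, 6 were called higher and 1 lower, with a median log2 ratio of 0.83. Stat2 had a ratio of 2.38 (1.22 to 4.61), and Usp18, which blocks signalling at Ifnar2, had 4.13 (2.11 to 8.33). Ifngr1, the ligand-binding chain for interferon gamma, was the gene called lower, with 53.1 CPM in MDSC_3, against 161, 119 and 120 CPM in MDSC_1, MDSC_2 and MDSC_4 (ratio 0.389, 0.193 to 0.716). MDSC_3 lay below all 3 neighbours for it. Its partner chain Ifngr2 had a ratio of 1.80 and was not called, and Ifnar1 and Ifnar2 had intervals that include 1. Socs3, a feedback inhibitor of cytokine signalling through Stat3, had a ratio of 1.29. Transcripts of the ligand Ifng were 8.86 CPM in MDSC_3 and 0 in the 3 neighbours, under the 10 UMIs asked for a comparison, and Ifnb1 was not analysed here.

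A list of innate sensors and adaptors holds receptors of nucleic acids, Tlr2 and Tlr4, which sense bacterial lipoproteins and lipopolysaccharide, and the adaptor Myd88. Of 9 genes compared, 3 were called higher and 0 lower, with a median log2 ratio of 0.62. The 3 were receptors of nucleic acids that are also on the type I list: Ifih1 and Ddx58, cytosolic sensors of double-stranded RNA, with ratios of 4.99 (2.85 to 8.95) and 3.12 (2.06 to 4.74), and Zbp1, a sensor of Z-form nucleic acid, with 3.28 (2.65 to 4.06). Tlr2, Tlr4, Tlr13, Myd88, Aim2 and Tmem173 were not called.

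Inflammatory genes formed a shared base of the 4 clusters with a few additions in MDSC_3. Of 17 cytokine and inflammasome genes compared, 6 were called higher and 0 lower, with a median log2 ratio of 0.37. Tnf was at 638 CPM in MDSC_3, against 354 in MDSC_1, 110 in MDSC_2 and 416 in MDSC_4, a ratio of 2.22 (1.77 to 2.78). Casp4, the cytosolic receptor for lipopolysaccharide, was at 341 CPM in MDSC_3, against 39.4, 143 and 107 CPM in MDSC_1, MDSC_2 and MDSC_4, a ratio of 3.72 (2.61 to 5.34). Il1a, Il18 and Casp1 had ratios of 2.76, 3.31 and 3.03. Ptgs2, the prostaglandin synthase, had a ratio of 0.983 (0.872 to 1.11), and Il6, Il10 and Il12b had 0 CPM in all 4 clusters.

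Of 22 genes induced through NF-kB, 7 were called higher and 0 lower, with a median log2 ratio of 0.58. Tnfaip2 stood at 5265 CPM in MDSC_3, against 2417 in MDSC_1, 2957 in MDSC_2 and 1618 in MDSC_4, a ratio of 2.20 (2.04 to 2.37). Icam1, the adhesion ligand of integrins, was at 815 CPM in MDSC_3, against 354, 95.4 and 214 CPM, a ratio of 3.52 (2.82 to 4.41). Nfkbia, the inhibitor whose transcript follows NF-kB activity, had a lower ratio of 1.46 (1.36 to 1.57). Sod2, Nfkb1, Nfkb2, Nfkbie and Tnip1 were the other 5 called.

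Among chemokines and their receptors, the interferon-induced ligands alone were called higher. Of 18 compared, 2 were called higher, Cxcl9 and Cxcl10, and 3 lower, Ccl5, Ccl6 and Cxcl3. The neutrophil chemoattractant Cxcl2 was at 13449 CPM in MDSC_3, against 13162 in MDSC_1, 13308 in MDSC_2 and 29022 in MDSC_4. The macrophage chemoattractant Ccl3 was at 2746 CPM in MDSC_3, against 3874, 1259 and 8952 CPM in MDSC_1, MDSC_2 and MDSC_4, and Ccl4 at 4163 CPM, against 3752, 1483 and 9475 CPM. For all 3 genes MDSC_4 was highest and MDSC_3 lay within the range of the other clusters. Cxcl3 was at 142 CPM in MDSC_3 and above that in MDSC_2 and MDSC_4, at 234 and 1083 CPM, but not in MDSC_1, at 70.9 CPM.

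Of genes tied to suppressive function, 2 of 14 compared were called higher, Cd274 and the fatty acid receptor gene Ffar2 (ratio 2.60, 2.08 to 3.24), and 0 lower. Arg1 and Nos2 had 0 CPM in MDSC_3, which allows up to 13.3 CPM for either. Of 7 Siglec and adaptor genes compared, 0 were called. Siglece, a sialic acid-binding inhibitory receptor, was at 177 CPM in MDSC_3, against 154, 224 and 88.1 CPM in MDSC_1, MDSC_2 and MDSC_4, and Tyrobp, the adaptor that SIGLEC15 pairs with, had a ratio of 1.03 (0.967 to 1.09). Siglec15 itself was not analysed here.

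**Figure D2:**
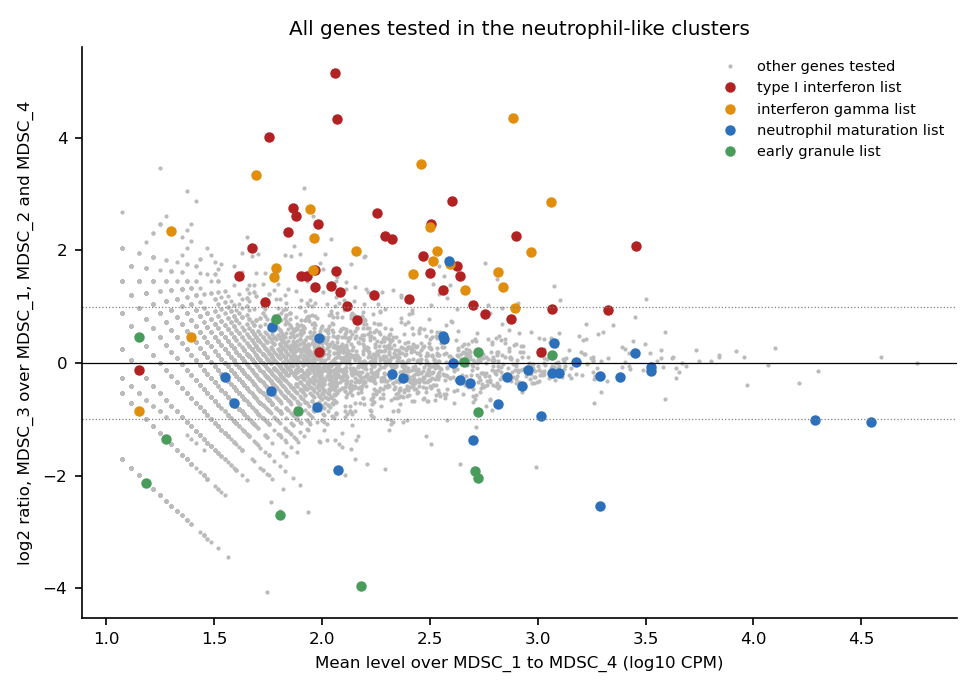
Each point is a gene compared, by its mean level over MDSC_1 to MDSC_4 (horizontal axis, log10 CPM) and its log2 ratio of MDSC_3 to MDSC_1, MDSC_2 and MDSC_4 pooled (vertical axis). The 41 genes of the type I interferon list (red) and 23 of the interferon gamma list (orange) lie mostly above the upper dotted line, which marks 2-fold, while neutrophil maturation (blue) and early granule genes (green) lie mostly near or below 0.

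Several of the genes with the strongest deficit in MDSC_3 are known from freshly released neutrophils, and for these MDSC_2 was the high cluster. Of 33 genes of neutrophil maturation and surface, 5 were called lower and 1, Icam1, higher, with a median log2 ratio of -0.25. Retnlg, a resistin-like secreted protein, was at 430 CPM in MDSC_3, against 70.9 in MDSC_1, 6387 in MDSC_2 and 1228 in MDSC_4, a ratio of 0.172 (0.139 to 0.212). S100a9, a subunit of calprotectin, was at 19640 CPM in MDSC_3, against 12512, 84954 and 26321 CPM in MDSC_1, MDSC_2 and MDSC_4, a ratio of 0.486 (0.470 to 0.502). S100a8, its partner, was at 11005 CPM in MDSC_3, against 7701, 46045 and 13856 CPM, a ratio of 0.496 (0.475 to 0.518). All 3 were higher in MDSC_3 than in MDSC_1 and far below MDSC_2, so the pooled ratio joins opposite directions. With ratios divided by the median of all genes, S100a9 stood at 0.529 and S100a8 at 0.540, past the limit for a call. Against MDSC_1 alone the ratio was 6.06 for Retnlg, 1.57 for S100a9 and 1.43 for S100a8. Mmp8 and Wfdc21 completed the called genes, and Csf3r, the receptor for the granulocyte growth factor, had a ratio of 1.02 (0.895 to 1.15).

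MDSC_2 was also the high cluster for the genes called lower on the early granule list. Of 13 compared, 0 were called higher and 4 lower, with a median log2 ratio of -0.87. Not every gene of the list was high in MDSC_2: Cyba and Ncf1 had 1088 and 434 CPM there, against 1253 and 585 in MDSC_3. Lcn2, an iron-scavenging granule protein, was at 159 CPM in MDSC_3, against 55.1 in MDSC_1, 1727 in MDSC_2 and 214 in MDSC_4. Camp, which encodes the antimicrobial peptide cathelicidin, had 0 UMIs in MDSC_3, MDSC_1 and MDSC_4, and its 129 UMIs in MDSC_2 came from 2 of 154 cells. The other neighbour cells had none, as in MDSC_3, so Camp does not separate the clusters. Ngp, another granule protein, had 0 UMIs in MDSC_3, MDSC_1 and MDSC_4 and 54 in 10 of the 154 MDSC_2 cells, 24 of them in the 2 cells with Camp. Lcn2 UMIs were spread wider, over 22 of 180 MDSC_3 cells, 12 of 245 MDSC_1 cells, 76 of 154 MDSC_2 cells and 18 of 128 MDSC_4 cells. Without the 2 cells with Camp, the pooled ratio was 0.256 for Lcn2 and 0.174 for Retnlg, and that of S100a8 was 0.506, past the limit for a call. Hp, or haptoglobin, was the other gene called. Mpo, Elane and Ctsg, made by promyelocytes, had 0 CPM in all 4 clusters.

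Hypoxia genes with a deficit in MDSC_3 were high in MDSC_4. Of 24 compared, 0 were called higher and 2 lower. Hilpda, a lipid droplet protein induced by hypoxia, was at 155 CPM in MDSC_3, against 102 in MDSC_1, 100.2 in MDSC_2 and 1819 in MDSC_4. Ero1l, an oxidase of protein folding, was at 142 CPM in MDSC_3, against 110, 62.0 and 862 CPM. Both exceeded MDSC_1 and MDSC_2 in CPM, and their pooled ratios of 0.287 and 0.496 came from MDSC_4. For Hilpda that excess was uncertain: 14 of 180 MDSC_3 cells held its 35 UMIs, 16 of them in 2 cells. Its interval of 108 to 216 CPM in MDSC_3 overlapped those of MDSC_1 (66.9 to 150) and MDSC_2 (62.0 to 153). Among 27 immediate early and dissociation genes, 0 were called higher and 2 lower, Hspa1a and Hspa1b, and Fos, a stress-induced transcription factor, had 1240 CPM in MDSC_3, against 2110, 2266 and 1549 CPM in MDSC_1, MDSC_2 and MDSC_4. Among 17 apoptosis and survival genes, 0 were called higher and 1 lower, and among 11 genes of DNA replication and mitosis 0 were called.

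**Figure D3:**
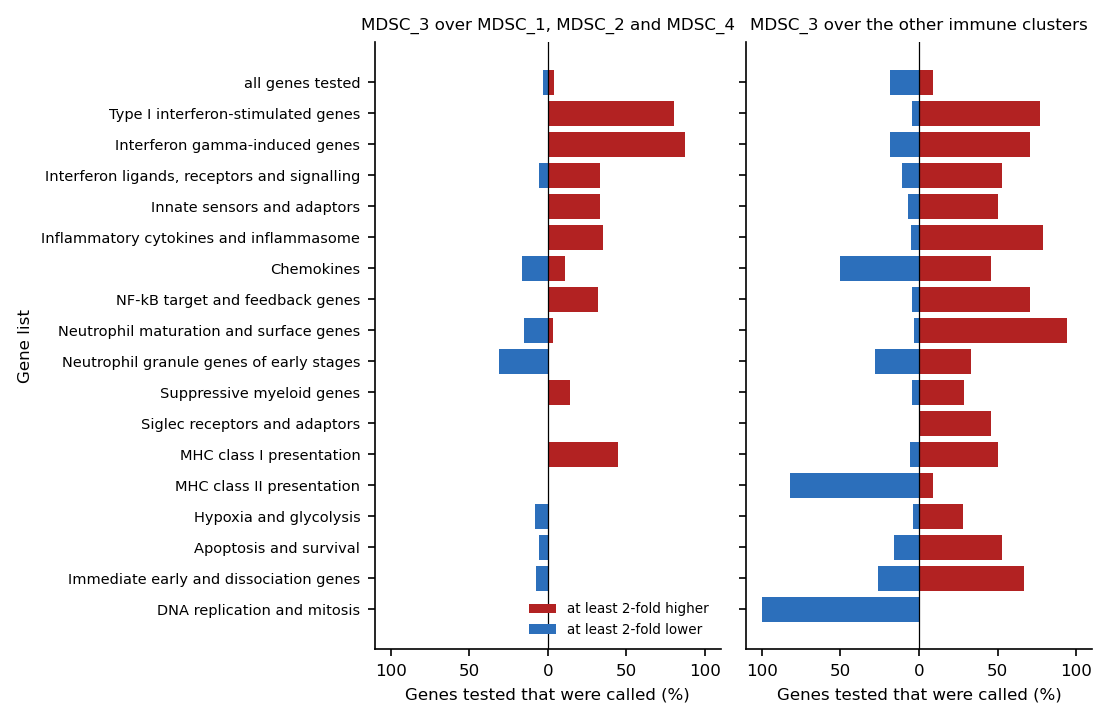
For each gene list (rows), bars to the right give the percentage of genes compared that were at least 2-fold higher in MDSC_3 and bars to the left at least 2-fold lower, against MDSC_1, MDSC_2 and MDSC_4 (left panel) and against the other immune clusters (right panel). The top row gives all genes, and in the left panel the interferon lists reach 80.5% and 87.0%.

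Taken singly, MDSC_1 gave 176 genes called higher in MDSC_3 (3.82% of 4605) and 290 lower (6.30%). MDSC_2 gave 352 higher (9.03% of 3897) and 176 lower (4.52%), and MDSC_4 gave 333 higher (8.89% of 3744) and 247 lower (6.60%). A stricter reading asked that a gene be called against each of the 3 neighbours. Of 3439 genes compared with all 3, 71 were higher in MDSC_3 each time (2.06%) and 8 lower each time (0.233%). Of the 71, 36 belonged to an interferon list and 31 to none of the pathway and function lists. The interferon lists hold 50 and 28 genes, and how many of these were among the 3439 was not counted. Among the 31 were members of families on the interferon lists, such as Ifi203, Gbp8, Trim30c, Parp10 and Parp12. Being on no list therefore does not set a gene apart from interferon. Genes of immune receptors and feedback were also among the 31. Fcgr4, an activating receptor for IgG antibodies, was at 717 CPM in MDSC_3, against 244 in MDSC_1, 215 in MDSC_2 and 176 in MDSC_4. Plac8, which is also on the list of monocyte markers, was at 1182 CPM in MDSC_3, against 528, 277 and 145 CPM in the same clusters. Nampt, the rate-limiting enzyme of the NAD salvage pathway, was at 709 CPM in MDSC_3, against 106, 329 and 353 CPM, and Il18bp, a secreted inhibitor of Il18, was at 226 CPM, against 90.6, 23.9 and 56.7 CPM. Clec12a, an inhibitory lectin receptor, and Nod1, a sensor of bacterial cell wall, were also among them, with 598 and 283 CPM in MDSC_3.

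The 8 genes below every neighbour were Ifngr1, Thbs1, Vps29, Rasa2, Gpr35, Cyp4f18, Cab39 and Csnk1e. Thbs1, the matrix protein thrombospondin 1, was at 66.4 CPM in MDSC_3, against 154, 215 and 428 CPM in MDSC_1, MDSC_2 and MDSC_4. Vps29, a subunit of the retromer sorting complex, was at 17.7 CPM in MDSC_3, against 142, 85.9 and 94.4 CPM. Gpr35, a G protein-coupled receptor of neutrophils, was at 17.7 CPM in MDSC_3, against 70.9, 62.0 and 75.5 CPM. Of the 15 genes with the strongest pooled deficit, Thbs1, Vps29 and Rasa2 were therefore the 3 that were called lower against every neighbour.

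Across all 30 clusters of the antibody library, MDSC_3 had the highest summed level of the type I list. The list took 28869 CPM (28172 to 29578) in MDSC_3, or 2.89% of its UMIs. MDSC_2 followed with 11729 CPM and MDSC_1 with 10040, and the first cluster outside the group was Macrophage_3 with 8680. MDSC_4 stood at 8493 CPM and the cluster named DC at 8456, while the highest tumour cluster, Tumor_9, had 5827 and CD8_T_1 had 1622. The ratio of the summed list was 2.83 (2.73 to 2.93) over MDSC_1, MDSC_2 and MDSC_4 and 6.76 (6.58 to 6.94) over the other immune clusters. Of 664 genes with at least 50 UMIs in MDSC_3, 144 had their highest level there among the 28 clusters compared, and 20 of these were on the type I list and 15 on the interferon gamma list. Genes entered this count through their UMIs in MDSC_3, so it favours that cluster and is a description only. How many of the 664 were on each list was not counted. For Cxcl10 the next cluster was Tumor_9 at 472 CPM, and for Cd274 it was MDSC_4.

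**Figure D4:**
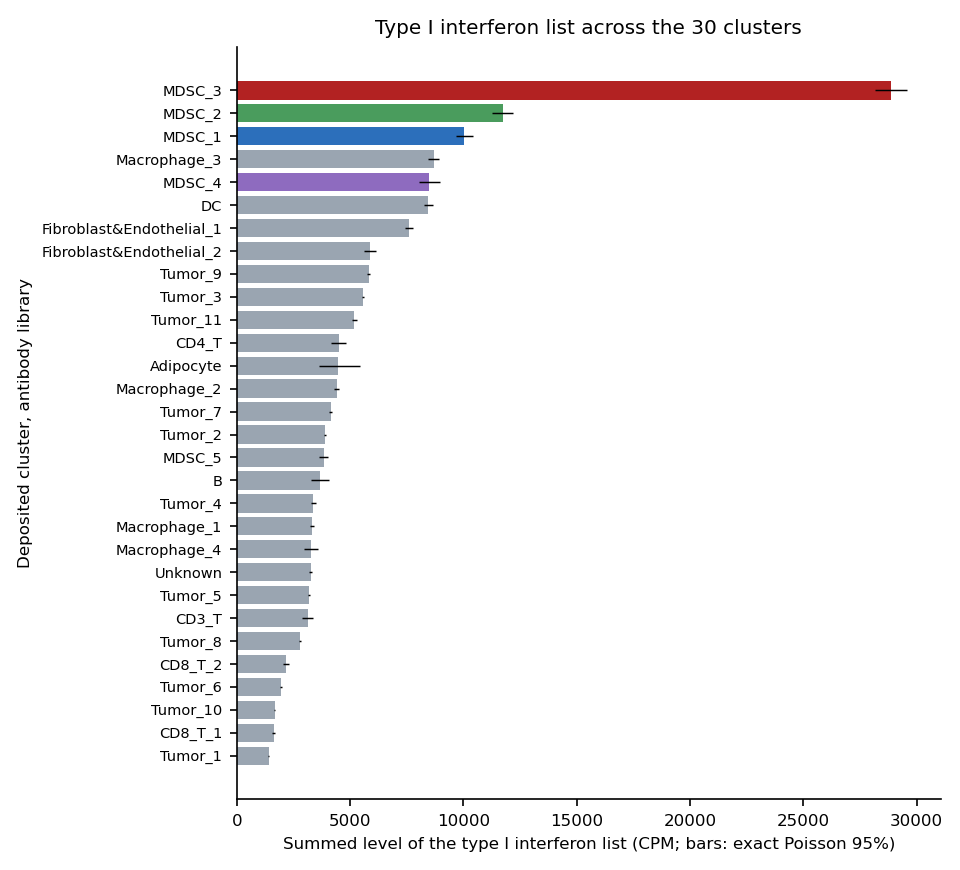
Summed level of the type I interferon list (horizontal axis, CPM, with exact Poisson 95% intervals) in each of the 30 deposited clusters of the antibody library. MDSC_3 stands at 28869 CPM, above MDSC_2 at 11729 and MDSC_1 at 10040, and no tumour cluster exceeds 5827.

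Single cells of MDSC_3 all carried UMIs of the interferon lists, in widely differing numbers. With each cell thinned to 500 UMIs, MDSC_3 cells held 1 to 58 UMIs of the type I list, with a median of 13, and 0 of 180 cells had none. The median was 4 UMIs in MDSC_1 (0 to 25), 5 in MDSC_2 (0 to 28) and 3 in MDSC_4 (0 to 26). At or above 13 UMIs were 51.7% of MDSC_3 cells, against 6.53% of MDSC_1, 7.14% of MDSC_2 and 3.91% of MDSC_4. The distributions overlapped, so some cells of the neighbours reached the level of the middle of MDSC_3. For the interferon gamma list the median was 8 UMIs in MDSC_3, against 2, 1 and 1 in MDSC_1, MDSC_2 and MDSC_4. At or above 8 were 53.3% of MDSC_3 cells, against 4.90%, 1.30% and 1.56% in the same clusters. These lists were part of what the clustering saw, so this separation is a description.

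**Figure D5:**
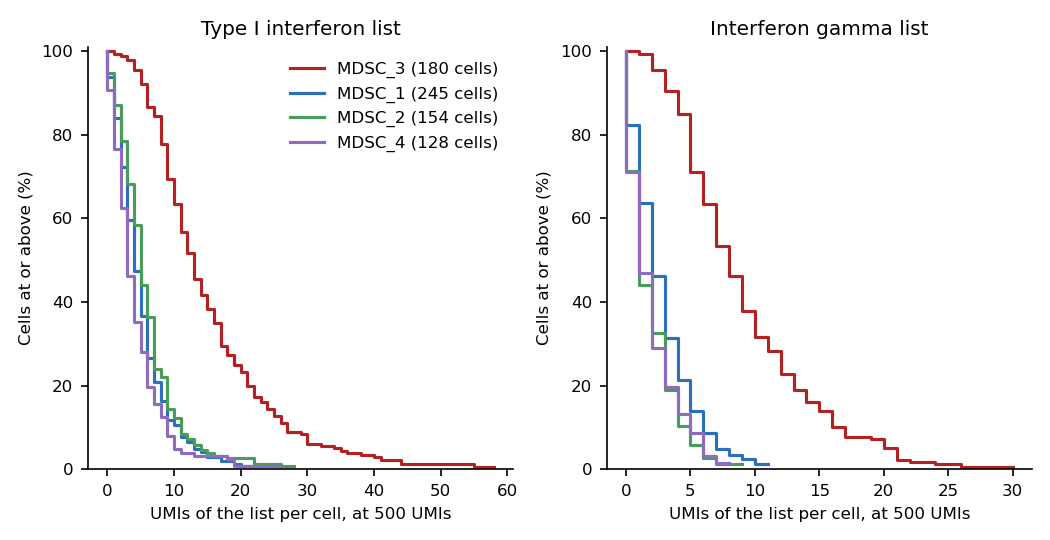
Percentage of cells (vertical axis) that hold at least a given number of UMIs of the list (horizontal axis) after thinning to 500 UMIs per cell, for the type I interferon list (left) and the interferon gamma list (right). The MDSC_3 curve (red, 180 cells) lies to the right of the others in both panels, with medians of 13 and 8 UMIs.

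Individual response genes differed in how many MDSC_3 cells carried them. After thinning to 500 UMIs, the expected share of cells with an Isg15 UMI was 86.2% (80.2 to 90.8%) in MDSC_3, against 39.4% in MDSC_1, 41.7% in MDSC_2 and 30.8% in MDSC_4. Gbp2 was carried by 69.0% of MDSC_3 cells, against 18.9%, 14.3% and 9.38%, and Cxcl10 by 38.8%, against 4.17%, 4.59% and 6.20%. Unthinned, the shares in MDSC_3 were 94.4%, 89.4% and 50.6%. T cell clusters, which give a rough idea of stray transcripts, had 2.66% of cells with Isg15, 1.83% with Gbp2 and 1.16% with Cxcl10 at 500 UMIs. Without thinning, the T cell shares were 11.5%, 9.81% and 6.15%. Their median depth was 2808.5 UMIs, against 1059 in MDSC_3, so thinning lowered their shares more. How much of these transcripts the T cells made themselves was not tested. Rsad2 was at 41.0% of MDSC_3 cells, Gbp5 at 35.1%, Slfn5 at 29.5%, Ifit1 at 16.1%, Ifit2 at 14.0%, Ifit3 at 13.3% and Herc6 at 8.33%. Such a share also follows the level of the gene, so a small share does not by itself mean a narrow set of cells.

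Some transcripts were concentrated in few cells. The 18 cells with the most UMIs of a gene held 51.2% of Rsad2, 56.3% of Cxcl10, 70.0% of Ifit2 and 76.1% of Ifit3 in MDSC_3, but 28.4% of Isg15, 30.4% of Gbp2 and 21.2% of Il1b. These shares are of unthinned UMIs and are larger for genes with few UMIs. Ifit2 had 90 UMIs in MDSC_3 and Ifit3 88, against 1458 for Isg15 and 3253 for Il1b. Rsad2 UMIs per cell, at 500 UMIs, had a variance 3.81 times the mean, and Gbp5 1.31 times, where 1 is the value for counting error alone. The same value was 4.83 for Cxcl10, 13.3 for S100a9 and 8.48 for S100a8. It was 2.11 for Ifit2 and 1.87 for Ifit3, below the 2.80 of Isg15 and the 2.42 of Il1b. For the same relative spread between cells, this value rises with the mean of the gene. The mean at 500 UMIs was 0.233 UMIs per cell for Ifit2 and 0.217 for Ifit3, against 3.47 for Isg15 and 7.53 for Il1b. The value therefore cannot rank these genes by how unevenly they were spread. Over the 180 cells, Rsad2 correlated with Ifit1 (r = 0.60), Ifit3 (r = 0.56) and Ifit2 (r = 0.51), although only 17 to 20 cells held UMIs of both genes of a pair. S100a8 and S100a9 had r = 0.84 and Ccl3 and Ccl4 r = 0.50. Gbp2 and Cd274 had r = 0.31. Summed over the whole lists, the type I and interferon gamma lists had r = 0.04 at 500 UMIs over the 180 MDSC_3 cells, against 0.29 in MDSC_1, 0.44 in MDSC_2 and 0.24 in MDSC_4. At 1000 UMIs the value was 0.19 over 106 MDSC_3 cells, against 0.38, 0.48 and 0.30 in the same neighbours. All these are descriptions over cells of 1 library. The correlations use cells thinned to an equal depth, and all genes of a cell share that total.

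Markers of other cell types were present at low levels. The hepatoma list, with 8 of 10 genes detected, took 1776 CPM in MDSC_3, against 1575 in MDSC_1, 1617 in MDSC_2 and 1580 in MDSC_4. The macrophage list, with 10 of 10 detected, took 1138 CPM in MDSC_3, against 1228, 1121 and 1416 CPM. The hepatoma sum was highest in MDSC_3, with intervals that overlap those of the neighbours, and the macrophage sum was highest in MDSC_4. The monocyte list was highest in MDSC_3, with 1404 CPM in MDSC_3, against 815, 696 and 283 CPM in MDSC_1, MDSC_2 and MDSC_4. In MDSC_3, 5 of its 8 genes were detected and Plac8 alone gave 1182 CPM of the sum, while Ms4a4c, Vcan and F13a1 were at 0. The part of these cell types in the interferon genes was not tested. Ccr2, a defining monocyte gene, was at 13.3 CPM in MDSC_3, against 27.6, 4.77 and 12.6 CPM. Natural killer cell genes were at 0 for 8 of 8, dendritic cell genes for 8 of 9 and red cell genes for 5 of 5, and T cell genes, with 5 of 10 at 0, summed to 57.6 CPM.

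The second comparison set MDSC_3 against the other 11 immune clusters of the antibody library, MDSC_5 among them, with 1315 cells. Of 12050 genes, 1100 were called higher in MDSC_3 (9.13%) and 2196 lower (18.2%). The 10 genes with the strongest excess joined neutrophil genes with interferon-stimulated ones. G0s2, an inhibitor of lipolysis, had a ratio of 77.7, Asprv1, a protease of skin and neutrophils, 83.5, and Cxcr2, the neutrophil chemokine receptor, 43.2. Slfn4, a Schlafen protein of myeloid cells, had a ratio of 68.4, Acod1 49.3, Rsad2 45.5, and Il1b 37.4. Trem1, an amplifying receptor of neutrophils, had 45.5, Upp1, an enzyme of uridine breakdown, 51.6, and Ifitm1 36.7. Of these 10, Slfn4, Acod1 and Rsad2 were also called higher against MDSC_1, MDSC_2 and MDSC_4. Of 33 maturation and surface genes 31 were called higher, of 48 type I list genes 37, and of 27 interferon gamma genes 19. Cxcr2 had a ratio of 0.919 to the neighbours.

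The genes with the strongest deficit against the other immune clusters were mostly those of antigen-presenting and lymphoid cells. Of 11 class II genes 9 were called lower: H2-Aa, a class II chain, stood at 75.3 CPM in MDSC_3, against 2754 CPM in the other immune clusters pooled. C1qa, a complement subunit of macrophages, was at 84.1 CPM in MDSC_3, against 1733 CPM in the other immune clusters. Cd3g, a chain of the T cell receptor complex, had 0 UMIs in MDSC_3 and was at least 25.5-fold lower, taking 3 counts as the limit of a count of 0. Vcam1, an adhesion molecule, had 0 UMIs and was at least 23.3-fold lower by the same limit. The upper ends of the exact two-sided intervals, a wider limit, were ratios of 0.0483 for Cd3g and 0.0529 for Vcam1. All 20 genes of DNA replication and mitosis were called lower. Of the interferon gamma list 5 genes were called lower, Irf8, Ciita and Serpina3g among them. Of the other two, Cxcl9 had a ratio of 0.220, and Iigp1 stood at 31.0 CPM in MDSC_3 and 125 CPM in the other immune clusters.

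The third comparison asked how MDSC_3 differed between SIGLEC15 antibody and IgG. Its share of the MDSC_1 to MDSC_4 cells was 25.5% in the antibody library (180 of 707, 22.3 to 28.8%) and 13.4% in the IgG library (40 of 299, 9.73 to 17.8%), a ratio of 1.90 (1.34 to 2.75). The same ratio was 1.03 (0.810 to 1.31) for MDSC_1, 0.775 (0.591 to 1.02) for MDSC_2 and 0.732 (0.545 to 0.988) for MDSC_4. MDSC_3 thus took more of the neutrophil-like cells in the antibody library than in the IgG library. These 4 shares add up to the whole, so a larger share of MDSC_3 leaves less for the others, and the direction for MDSC_2 and MDSC_4 turned with the denominator. As a share of immune cells the ratio was 2.54 for MDSC_3, 1.37 for MDSC_1, 1.03 for MDSC_2 and 0.976 (0.727 to 1.32) for MDSC_4. As a share of all cells it was 4.73 for MDSC_3, 2.55 for MDSC_1, 1.93 for MDSC_2 and 1.82 for MDSC_4. With at least 1000 UMIs per cell, the share was 26.2% in the antibody library and 10.2% in the IgG library, a ratio of 2.57. With 1 library per group, differences between mice and between libraries cannot be told apart from the treatment.

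Expression inside MDSC_3 could be set side by side for the 105 genes read in both libraries, of which 10 had at least 20 UMIs in MDSC_3. These came from 172 antibody cells with 218366 UMIs and 35 IgG cells with 42076 UMIs. In 0 of 10 genes (0.00%) did the interval of the ratio exclude 1. Neurl3, an E3 ligase gene induced by inflammation, was at 316 CPM in antibody MDSC_3 cells and 523 CPM in IgG MDSC_3 cells, a ratio of 0.604 (0.369 to 1.03). Arid5a, an RNA-binding protein that stabilises cytokine transcripts, was at 165 CPM in antibody cells and 214 CPM in IgG cells, a ratio of 0.771 (0.364 to 1.82). Ptpn18, a phosphatase, was at 243 CPM in antibody cells and 380 CPM in IgG cells, a ratio of 0.638. Ratios of the other 7 ranged between 0.707 for Rpl7, a ribosomal protein, and 2.99 for Rb1cc1, an autophagy initiator, whose interval of 0.760 to 25.8 rests on 31 antibody UMIs and 2 IgG UMIs. None of the 105 genes is on the type I list, so the interferon-induced genes of MDSC_3 were compared between clusters only and not between treatments.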

How the data were processed

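Single cells were captured with 10x 3' chemistry and counted with Cell Ranger 2.1.1, as the submitters' processing notes name it. No genome build, cell filter or clustering method is given in those sources. The authors deposited cluster names and, for each gene and cell, a natural log value of UMIs scaled to 10000 per cell plus 1. Whole UMIs were recovered from the deposited values within a tolerance of 0.001. The IgG table held complete rows for 105 genes, from which cell depths were recovered, and this step gave the true depth in 172 of 172 antibody MDSC_3 cells where it gave one.

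UMIs were summed per cluster and scaled to CPM. Ratios have exact conditional intervals, shares Clopper-Pearson intervals and levels Poisson intervals, all at 95%. A side with 0 UMIs was set to 3 counts for medians and bounds. Named genes were the 5 markers, the 15 in each direction (10 against other immune clusters) whose interval lay farthest from 1, with 50 UMIs and 50 CPM as minimums, the 4 of each list with most UMIs, shared genes with 20 UMIs, and members of counts of 5 or fewer. Ribosomal, mitochondrial, haemoglobin, antigen receptor and unnamed genes were left out of the ranked sets. Other genes named were chosen after their values were seen. Members and lists were chosen with earlier results of these data known. Scrublet (in scanpy 1.11.5) marked 3 of 5482 antibody cells as doublets and 0 in MDSC_3, too few to count as working, and no cell was removed. Python 3.11.15, numpy 2.4.6, pandas 2.3.3, scipy 1.17.1 and matplotlib 3.10.9 were used, and the interval and call steps were tested on simulated data. RefSeq promoters were matched by symbol. Some genes of the lists are not reported here by name.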

Additional observations from a re-analysis of the deposited data

How the results depend on the processing

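For the 33 named genes of the comparison with MDSC_1, MDSC_2 and MDSC_4, 365 alternative values stayed close to the reported ratio, 51 moved and 8 turned. All 8 that turned came from the choice of neighbour. Against MDSC_1 alone the ratio was 6.06 for Retnlg, 2.89 for Lcn2, 1.51 for Hilpda, 1.57 for S100a9, 1.77 for Wfdc21 and 1.43 for S100a8. Against MDSC_2 alone it was 0.952 for Il1b and 1.55 for Hilpda. In MDSC_3, 16 of the 35 Hilpda UMIs came from 2 cells. Genes called higher numbered 352 against MDSC_2 alone, 333 against MDSC_4 alone and 116 with at least 50 UMIs per gene. Genes called lower numbered 290 against MDSC_1 alone, 86 with at least 50 UMIs, where fewer genes are tested, and 123 with ratios divided by their median. The ratio of the summed type I list was 2.46 against MDSC_2 alone, 3.40 against MDSC_4 alone, 2.95 as a mean of per-cell CPM, 3.08 with ratios divided by their median and 2.97 without the 10% of cells with the highest doublet score. Against the other immune clusters it was 6.30 with at least 1000 UMIs per cell, 5.39 against macrophage and DC clusters and 7.06 without those 10%. For the 20 named genes of that comparison 119 of 140 values stayed and 21 moved. The ratio of MDSC_3 shares was 4.73 over all cells. Between antibody and IgG, 1 shared gene had an interval excluding 1 with at least 1000 UMIs per cell, Rb1cc1 with 25 antibody UMIs and 0 IgG UMIs, and 1 with ratios divided by the median in immune cells, Neurl3 at 0.576. The cause of these moves was not tested. Leaving out 10% of cells by doublet score, leaving out MDSC_5 and leaving out the cells with Camp UMIs were chosen after seeing the data. No paired analysis was possible because each group has 1 library. Depth limits genes under about 13.3 CPM in MDSC_3, where 3 counts are the limit of a count of 0.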
